A study of Mus musculus with 6 samples.

Results

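Glycolysis and hypoxia response genes were read in red pulp macrophages, the macrophages of the spleen that take up aged red blood cells. The set held 35 genes of both pathways, listed by name, and all 35 were found among the 20018 named genes of the array. They came from spleens of C57BL/6 mice aged 8 to 9 weeks and were isolated in a flow sorter. There were 3 mice with a Bach2 knock out, all male, and 3 wild-type mice, of which mouse 3 was female. The labels do not say whether the knockout was restricted to a cell type. Each mouse gave RNA for 1 single-colour array. Bach2 is a transcription factor that represses genes through Maf recognition elements, and the study asked about its part in heme and iron homeostasis.

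Glycolysis turns glucose into pyruvate in the cytosol and yields ATP without oxygen. Glucose enters through transporters of the Slc2a family, is trapped by hexokinases, passes through the phosphofructokinase step that sets the rate, and leaves as pyruvate or, after lactate dehydrogenase, as lactate. The transcription factors Hif1a and Epas1 (HIF-2 alpha) are held low in oxygen by the prolyl hydroxylases of the Egln family, which mark them for degradation. When they are stable they raise genes such as Vegfa and Adm through DNA sites with a short core. Most enzymes of the pathway, and Bnip3, are raised mainly through Hif1a. Macrophages raise glycolysis when activated, and red pulp macrophages also carry a heavy load of heme and iron.

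Levels are given as log2 of the processed signal minus the 75th percentile of that array, so that 0 is the level of an array's 75th percentile and 1 unit is a doubling. Differences are knockout minus wild type on the same log2 scale, with the standard error (SE) from limma, a linear model fitted over all 18405 genes and transcripts that the scanner software marked as well above background on 3 or more of the 6 arrays. On different arrays 29 to 32 of the 35 genes were well above background, and between 37.5% and 51.5% of all spots were. The 75th percentile of the signal ranged from 764 units in wild-type mouse 3 to 2664 units in knockout mouse 3. None of the 35 genes reached the range of the brightest spike-in controls, 374188 to 577623 units, the highest signal being 295490 for Ddit4. All arrays lay on 1 slide with 1 scan time. Knockout arrays lay in slide row 2 and wild-type arrays in row 1, and the effects of row and genotype cannot be told apart. Mouse 1 of each genotype lay in array column 1, mouse 2 in column 2 and mouse 3 in column 3. Bach2 itself read -2.24, -3.72 and -1.15 in the knockout mice, against -0.90, 0.02 and -1.35 in the wild-type mice, with the knockout mice overlapping wild type at mouse 3 (limma adjusted p = 1). It was well above background on 2 of 3 knockout arrays and 3 of 3 wild-type arrays. Whether this probe sits in or outside the deletion is not given in the sources used here, so it does not check the labels. Of 16 genes chosen as markers of red pulp macrophages, 15 were named on the array and all 15 were tested. Of the 15, 14 were well above background on all 6 arrays. Spic, the transcription factor these cells require, lay between 5.53 and 6.67 on the 6 arrays, and Vcam1, an adhesion molecule of these cells, between 7.07 and 8.50. Some other markers of the list were as bright, such as C1qc between 7.24 and 9.00, and some were dimmer. Siglec1 lay between -0.54 and 1.04. Cd163 lay between -3.67 and 0.02, well above background on 1 of 3 knockout arrays and 3 of 3 wild-type arrays. In bulk RNA, fewer cells of a type and less RNA per cell cannot be told apart.

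Hypoxia-inducible factors bind sites with the core ACGTG or GCGTG, and Bach2 binds sites that contain TGANTCA or, with small Maf partners, TGACNNNGC. These letters were searched on both strands in the 250 bases before each annotated start, overlapping matches counted separately. Promoter sequences, from RefSeq on GRCm38.p6, were given for 33 of the 35 genes. Of these, 30 genes held a hypoxia core before at least 1 start (90.9%), against 41.5% of all 27025 genes. The windows of the 35 genes were also richer in G and C, with a median of 60.4% against 52.4% over all windows. TGANTCA stood before 1 of the 33 genes, Aldoa (3.03%), against 7.82% of all genes, and TGACNNNGC before 4 of the 33 (12.1%), against 11.5% of all genes. A match is letters only and shows no binding. Windows rich in hypoxia cores are shown for 4 genes, with the cores in capitals, a pair from each of 2 kinds. Each pair has the most cores among the tested genes of its kind, Pgam1 being tied with Pfkfb3. Slc2a6 and Pfkfb3 read lowest in both mice of array column 1, as described below, while Bnip3 and Ldha did not. The window of Slc2a6 lies at chr2:27027999-27028248 on the minus strand, that of Pfkfb3 at chr2:11502091-11502340 on the minus strand, that of Bnip3 at chr7:138909507-138909756 on the minus strand, and that of Ldha at chr7:46845554-46845803 on the plus strand.
Slc2a6: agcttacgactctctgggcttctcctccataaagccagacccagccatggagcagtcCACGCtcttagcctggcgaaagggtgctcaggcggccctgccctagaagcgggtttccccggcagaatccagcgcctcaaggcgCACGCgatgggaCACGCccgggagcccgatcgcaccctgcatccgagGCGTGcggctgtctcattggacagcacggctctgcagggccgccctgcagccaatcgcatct
Pfkfb3: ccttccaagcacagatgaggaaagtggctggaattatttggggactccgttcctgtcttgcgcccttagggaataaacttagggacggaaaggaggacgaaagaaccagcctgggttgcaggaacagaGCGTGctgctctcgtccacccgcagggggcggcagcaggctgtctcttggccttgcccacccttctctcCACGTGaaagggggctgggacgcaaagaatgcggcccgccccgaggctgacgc
Bnip3: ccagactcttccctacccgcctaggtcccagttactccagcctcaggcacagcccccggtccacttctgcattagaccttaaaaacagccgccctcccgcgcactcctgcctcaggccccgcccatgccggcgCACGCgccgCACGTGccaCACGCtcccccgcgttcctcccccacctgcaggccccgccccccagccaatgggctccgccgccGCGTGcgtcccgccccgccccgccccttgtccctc
Ldha: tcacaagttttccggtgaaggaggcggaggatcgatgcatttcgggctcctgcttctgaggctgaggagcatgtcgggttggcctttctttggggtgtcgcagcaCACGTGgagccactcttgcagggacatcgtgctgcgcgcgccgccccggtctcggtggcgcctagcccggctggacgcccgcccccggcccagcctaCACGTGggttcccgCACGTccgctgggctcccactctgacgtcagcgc
The window of Slc2a6 held 4 cores, that of Pfkfb3 held 3, and those of Bnip3 and Ldha held 5 each, with CACGTG read as a core on both strands.

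Of the 35 genes, 31 were tested and 0 passed the test between knockout and wild type. The limma adjusted p of each member rounded to 1, and the smallest unadjusted p was 0.318. Across all 18405 genes tested the share called was 0%, and 229 genes (1.24%) had an unadjusted p under 0.05, none of them a member. Members lay below 0 in 19 cases and above 0 in 12. The median log2 difference over the 31 members was -0.09, beside -0.11 over all genes, of which 39.3% lay above 0. The split of members turned to 12 below and 19 above when each array was centred on its median, where the median of all genes moved to 0.03, and likewise with quantile normalization, where it moved to -0.01. The largest differences were -0.61 for Adm and 0.60 for Slc2a1, and both depended on single mice. Adm came to -0.25 without knockout mouse 2 and -0.17 without wild-type mouse 2, and Slc2a1 to 0.33 without knockout mouse 2 and 0.14 without wild-type mouse 1. Each of the 31 differences was smaller than the larger of the ranges between mice of 1 genotype. That held even for Pfkp, whose genotypes did not overlap, so it does not show that a difference is absent. The 95% intervals reached between 0.97 and 1.85 log2 units to either side, with a median of 1.15, which is more than a doubling, and 28 of the 31 lay wholly between -2 and 2.

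**Figure D1:**
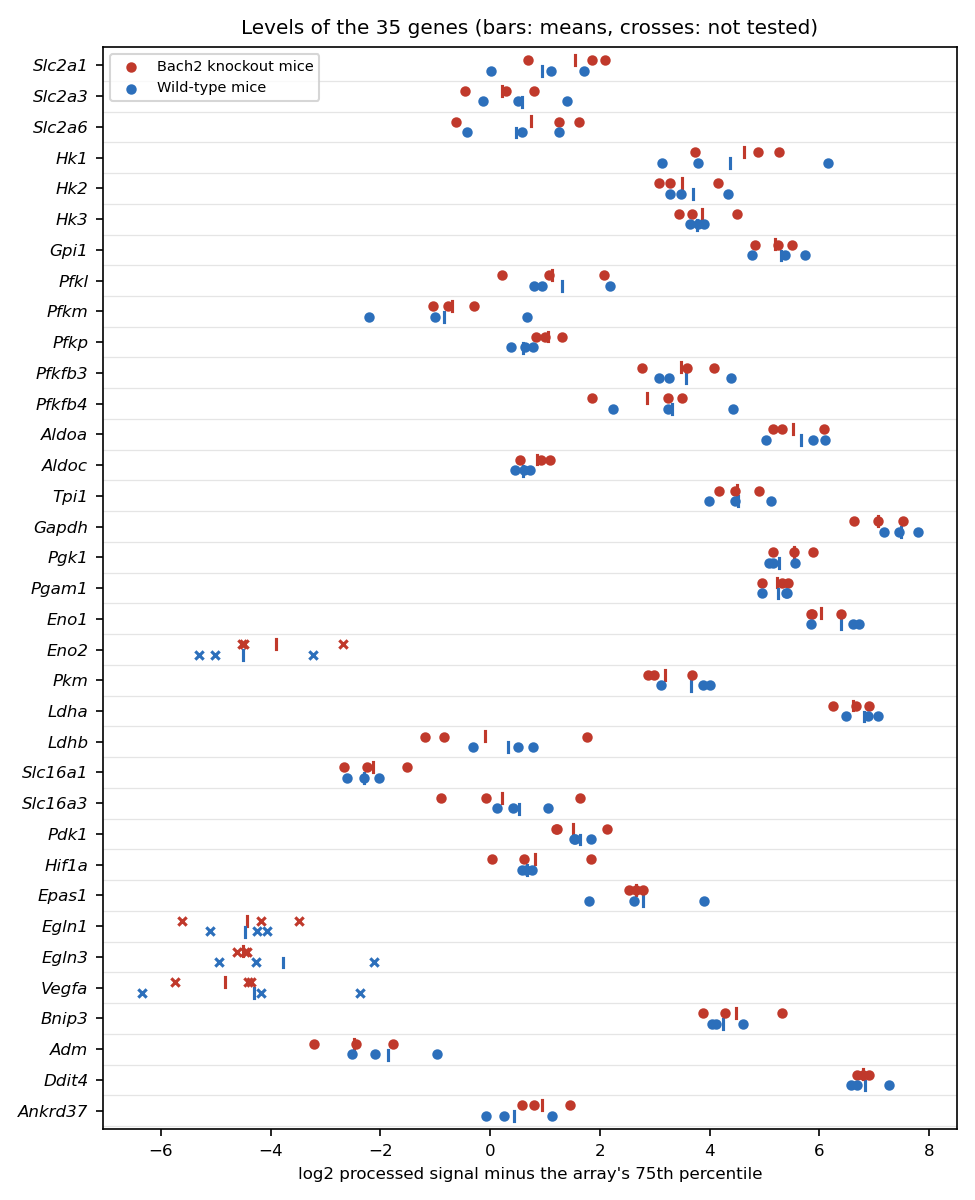
The log2 level of each of the 35 genes is plotted by mouse, with knockout points above wild-type points on each line, bars at the means of 3 mice, and crosses for the 4 genes that were not tested. The 2 genotypes overlap for every tested gene except Pfkp.

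The 3 glucose transporters differed more between arrays of 1 genotype than between genotypes. Slc2a1 (GLUT1), the transporter of basal glucose uptake, read 0.70, 2.09 and 1.86 in knockout mice 1, 2 and 3, against 0.01, 1.71 and 1.11 in wild-type mice 1, 2 and 3. Its difference was 0.60 ± 0.61 (SE), and it was higher in knockout within each array column, by 0.68, 0.38 and 0.75. Slc2a1 was 1 of 5 members with the same sign within all 3 columns, a property of 22.2% of all genes. Slc2a3 (GLUT3), a transporter with high affinity for glucose, read -0.46, 0.29 and 0.80 in knockout mice, against -0.14, 1.40 and 0.50 in wild-type mice. Its difference was -0.38 ± 0.57 (SE). Slc2a6 (GLUT6), a lysosomal transporter of activated macrophages, read -0.62, 1.62 and 1.25 in knockout mice, against -0.42, 1.26 and 0.59 in wild-type mice. Both genotypes were lowest at mouse 1 for all 3 transporters. A second, dimmer probe of Slc2a6 was well above background on 2 of 3 knockout arrays and 1 of 3 wild-type arrays, and read -0.86, 1.51 and -3.80 in knockout mice, against -4.83, -3.75 and -3.23 in wild-type mice. No size is given for it, since most of its wild-type values lay at background, and the brighter probe differed by 0.27 ± 0.71 (SE).

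Hexokinases, which phosphorylate glucose on entry, were read well above background on every array by their brightest probes. Hk2, the inducible form, read 3.07, 3.28 and 4.15 in knockout mice, against 3.28, 4.34 and 3.49 in wild-type mice, with a difference of -0.20 ± 0.52 (SE). Hk3, the form typical of myeloid cells, averaged 3.87 ± 0.55 (SD, n = 3) in knockout and 3.78 ± 0.12 (SD, n = 3) in wild type. Hk1, the hexokinase of red cells and many other tissues, read 5.27, 4.88 and 3.73 in knockout mice, against 6.16, 3.80 and 3.14 in wild-type mice. It ran opposite to the transporters, highest at mouse 1 and lowest at mouse 3 in both genotypes, and spanned 3.01 log2 units over the 6 arrays. Its difference was 0.26 ± 0.81 (SE), with a second, dimmer probe at -0.07.

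Of the 9 genes of the upper pathway, 6 lay below 0 and 3 above. Pfkp, the platelet-type phosphofructokinase, was the only member whose genotypes did not overlap, at 1.01, 1.31 and 0.83 in knockout mice, against 0.78, 0.38 and 0.64 in wild-type mice. Its difference was 0.45 ± 0.42 (SE), a 1.37-fold higher mean, with an unadjusted p of 0.318. It was 1 of 31 members with every knockout array above every wild-type array, as for 1.14% of all genes, and 2.89% of all genes did not overlap in either direction. A second, dimmer probe, too dim to be tested, was well above background on 0 of 3 knockout arrays and 2 of 3 wild-type arrays, and read -4.51, -2.71 and -3.78 in knockout mice, against -2.95, -3.26 and -1.82 in wild-type mice. The nearest values of the brighter probe, 0.83 in knockout mouse 3 and 0.78 in wild-type mouse 1, lay close together. Pfkl, the liver-type form, averaged 1.12 ± 0.93 (SD, n = 3) in knockout and 1.31 ± 0.76 (SD, n = 3) in wild type. Pfkm, the muscle-type form, averaged -0.70 ± 0.38 (SD, n = 3) in knockout and -0.84 ± 1.45 (SD, n = 3) in wild type, and like Hk1 it was highest at mouse 1 in both genotypes.

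Pfkfb3 and Pfkfb4 make fructose 2,6-bisphosphate, the activator of phosphofructokinase, and both are known HIF targets. Pfkfb4 read 1.85, 3.25 and 3.50 in knockout mice, against 2.25, 4.44 and 3.25 in wild-type mice, a difference of -0.44 ± 0.69 (SE). Pfkfb3 averaged 3.48 ± 0.66 (SD, n = 3) in knockout and 3.58 ± 0.71 (SD, n = 3) in wild type. For both genes the highest array was wild-type mouse 2 and the lowest knockout mouse 1. Gpi1, the phosphoglucose isomerase, differed by -0.11 ± 0.47, and Tpi1, the triose phosphate isomerase, by -0.02 ± 0.49 (SE). Aldoa, the main aldolase, differed by -0.15 ± 0.50 (SE). Aldoc, the brain-type aldolase, read 1.09, 0.93 and 0.55 in knockout mice, against 0.73, 0.61 and 0.46 in wild-type mice, and was higher in knockout within every column, by 0.35, 0.32 and 0.09, with a difference of 0.25 ± 0.42 (SE).

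In the lower pathway 5 of 6 genes were tested, of which 4 lay below 0 and 1 above, with a median difference of -0.36. Gapdh, glyceraldehyde phosphate dehydrogenase, read 7.07, 7.53 and 6.63 in knockout mice, against 7.18, 7.46 and 7.80 in wild-type mice. The low value at knockout mouse 3 and the high value at wild-type mouse 3 gave -1.18 within column 3, against -0.11 and 0.07 within columns 1 and 2. Column 3 pairs the arrays with the highest and the lowest 75th percentile, 2664 units in knockout and 764 units in wild type. The part of this scaling in the differences within column 3, for Gapdh and other bright genes, was not tested. Gapdh differed by -0.41 ± 0.46 (SE), and all 7 probes lay below 0, between -0.60 and -0.18. With quantile normalization the difference was -0.0077. Gapdh has many processed copies in the mouse genome, and which of these a probe also reads was not examined here. Eno1, the ubiquitous enolase, read 5.85, 6.40 and 5.86 in knockout mice, against 5.84, 6.62 and 6.73 in wild-type mice, a difference of -0.36 ± 0.47 (SE), with -0.87 in column 3. Pkm, the pyruvate kinase of most tissues, read 2.89, 2.98 and 3.67 in knockout mice, against 3.11, 4.01 and 3.89 in wild-type mice. It was the only member below 0 within all 3 columns, by -0.22, -1.03 and -0.22, with a difference of -0.49 ± 0.48 (SE) and an interval from -1.59 to 0.61. Pgk1, phosphoglycerate kinase, went the other way, at 5.16, 5.88 and 5.55 in knockout mice, against 5.16, 5.55 and 5.09 in wild-type mice, a difference of 0.26 ± 0.44 (SE). Pgam1, phosphoglycerate mutase, averaged 5.24 ± 0.24 (SD, n = 3) in knockout and 5.25 ± 0.26 (SD, n = 3) in wild type. Eno2, the neuronal enolase, was dim and not tested, with levels from -4.52 to -2.68 in knockout, where 1 array was well above background, and from -5.31 to -3.22 in wild type, where 0 were.

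Of the 5 genes of lactate and pyruvate handling, 4 lay below 0 and 1 above, with a median difference of -0.20. Ldha, the lactate dehydrogenase subunit that favours lactate, read 6.67, 6.90 and 6.26 in knockout mice, against 6.49, 7.07 and 6.88 in wild-type mice. Its difference was -0.20 ± 0.44 (SE) and its 3 probes lay between -0.26 and -0.08. Ldhb, the subunit that favours pyruvate, read -1.19, 1.76 and -0.84 in knockout mice, against 0.50, 0.78 and -0.32 in wild-type mice. Knockout mouse 2 was the highest and knockout mouse 1 the lowest of all 6 arrays, so the knockout mice spanned the wild-type range, and the difference was -0.41 ± 0.79 (SE). Slc16a3 (MCT4), the exporter of lactate, had the same extremes, at -0.90, 1.65 and -0.07 in knockout mice, against 0.42, 1.06 and 0.13 in wild-type mice. Its difference was -0.31 ± 0.68 (SE), while a second probe gave 0.19. Knockout mouse 2 also had the highest level of NK and T cell markers (median centred level 1.57) and of neutrophil markers (1.53). The part of these cells in both genes was not tested. Slc16a1 (MCT1), a lactate carrier, was well above background on 2 of 3 arrays of each genotype and differed by 0.17 ± 0.48 (SE). Pdk1, a pyruvate dehydrogenase kinase and a HIF target, read 1.21, 1.22 and 2.12 in knockout mice, against 1.52, 1.83 and 1.55 in wild-type mice, a difference of -0.12 ± 0.46 (SE).

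Both factors were well above background on all 6 arrays, and neither passed the test. Hif1a read 0.61, 0.03 and 1.83 in knockout mice, against 0.66, 0.58 and 0.76 in wild-type mice, a difference of 0.16 ± 0.55 (SE). The wild-type mice were close together and the knockout mice lay on both sides of them. Its mRNA does not show the protein, which oxygen controls after translation. Epas1 read 2.66, 2.53 and 2.80 in knockout mice, against 2.63, 1.81 and 3.91 in wild-type mice, a difference of -0.12 ± 0.59 (SE). Its second tested probe was dimmer and disagreed, at -1.77, 0.93 and -0.11 in knockout mice, where it was well above background on 3 of 3 arrays, against -1.33, -6.49 and -2.10 in wild-type mice, where it was so on 1 of 3. No size is given for that probe, since most of its wild-type values lay at background. The sensors Egln1 and Egln3 were not tested. Egln1, with levels from -5.62 to -3.49 in knockout and from -5.10 to -4.07 in wild type, stayed near background everywhere. Egln3 lay from -4.62 to -4.42 in knockout and from -4.95 to -2.12 in wild type, where 1 array was well above background. A second probe of Egln3 was well above background on 1 of 3 knockout arrays and 0 of 3 wild-type arrays.

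Among the hypoxia targets outside glycolysis, 4 of 5 were tested, with 2 above 0 and 2 below. Ddit4, an inhibitor of mTORC1 that hypoxia and glucocorticoids raise, stayed within 0.70 log2 units over the 6 arrays, at 6.68, 6.91 and 6.79 in knockout mice, against 6.68, 7.27 and 6.57 in wild-type mice. Bnip3, a mitophagy receptor, read 5.31, 4.29 and 3.87 in knockout mice, against 4.11, 4.04 and 4.60 in wild-type mice. Knockout mouse 1 alone lay above the wild-type mice, and the difference was 0.24 ± 0.51 (SE). A second tested probe gave -0.06. Ankrd37, an ankyrin repeat gene induced by HIF, read 0.58, 1.45 and 0.80 in knockout mice, against 1.12, 0.26 and -0.07 in wild-type mice. Knockout mouse 1 lay below wild-type mouse 1, whereas knockout mice 2 and 3 lay above their column partners, with a difference of 0.51 ± 0.51 (SE). Adm, adrenomedullin, a secreted vasodilator peptide, read -2.45, -3.20 and -1.77 in knockout mice, against -2.52, -0.97 and -2.09 in wild-type mice. It was well above background on 1 of 3 knockout arrays and 2 of 3 wild-type arrays, and its difference of -0.61 ± 0.59 (SE) rests on column 2, at -2.23, against 0.33 in column 3. Vegfa, the angiogenic growth factor, was dim and not tested, with levels from -5.74 to -4.36 in knockout, where 0 arrays were well above background, and from -6.35 to -2.37 in wild type, where 1 was.

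**Figure D2:**
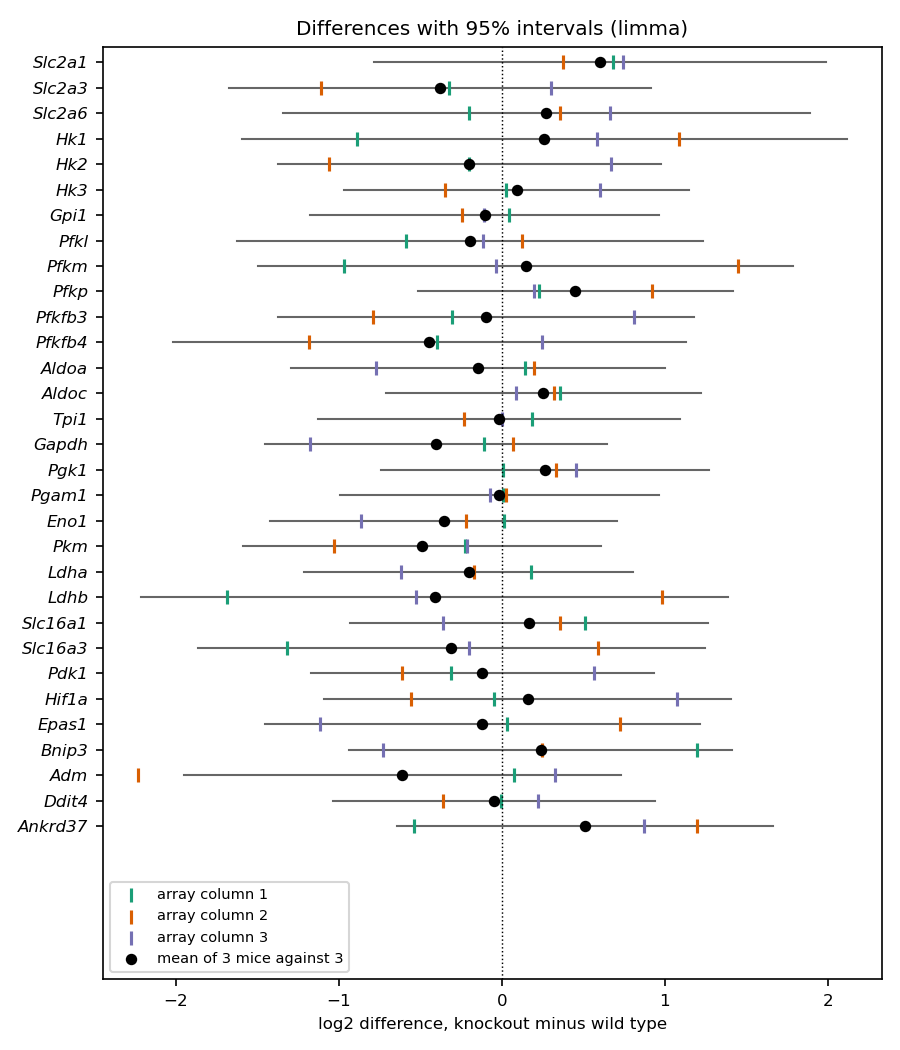
The log2 difference, knockout minus wild type, of the 31 tested genes is plotted as a black point with its 95% interval, and coloured ticks give the difference within array columns 1, 2 and 3. All 31 intervals include 0, from a lowest bound of -2.21 to a highest of 2.11.

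Levels varied with the array column, a pattern described after the data were seen. The column accounted for more of the variation between arrays than the genotype in 27 of 31 members, as in 16127 of all 18405 genes, so this was no trait of the members. Column has 2 degrees of freedom and genotype 1. In both genotypes mouse 1 gave the lowest levels of many members. For 12 of 31 members (38.7%) both arrays of column 1 lay below the other 4, against 17.5% of all genes. These were the 3 transporters, Hk2, Gpi1, Pfkl, Pfkfb3, Pfkfb4, Aldoa, Tpi1, Pgam1 and Eno1. Among the neighbouring lists described below, the share was 37.5% for pentose phosphate, 35.3% for glycogen and gluconeogenesis and 32.1% for further hypoxia genes. For pyruvate oxidation and the TCA cycle it was 16%, and for red pulp macrophage markers 26.7%. The pattern was thus not particular to the members. In the median member the column accounted for 66.4% of the variation between arrays and the genotype for 4.14%, beside 62.2% and 6.75% in the median of all genes. With genotype in the model, limma's F test for column called 0 members and 0% of all genes at an adjusted p under 0.05, whereas 5 members (Slc2a1, Slc2a6, Hk1, Pfkl and Pfkfb4) and 18.9% of all genes had an unadjusted p under 0.05. Pgam1 showed the pattern at the smallest scale, at 4.96, 5.43 and 5.32 in knockout mice, against 4.96, 5.40 and 5.40 in wild-type mice, with a difference of -0.07 within column 3. Pfkl read 0.22, 1.07 and 2.07 in knockout mice, against 0.81, 0.94 and 2.19 in wild-type mice. Tpi1 read 4.16, 4.89 and 4.46 in knockout mice, against 3.98, 5.13 and 4.46 in wild-type mice. At least 1 hypoxia core stood before 9 of the 11 such genes with a promoter sequence, and before 18 of the 18 other tested members.

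**Figure D3:**
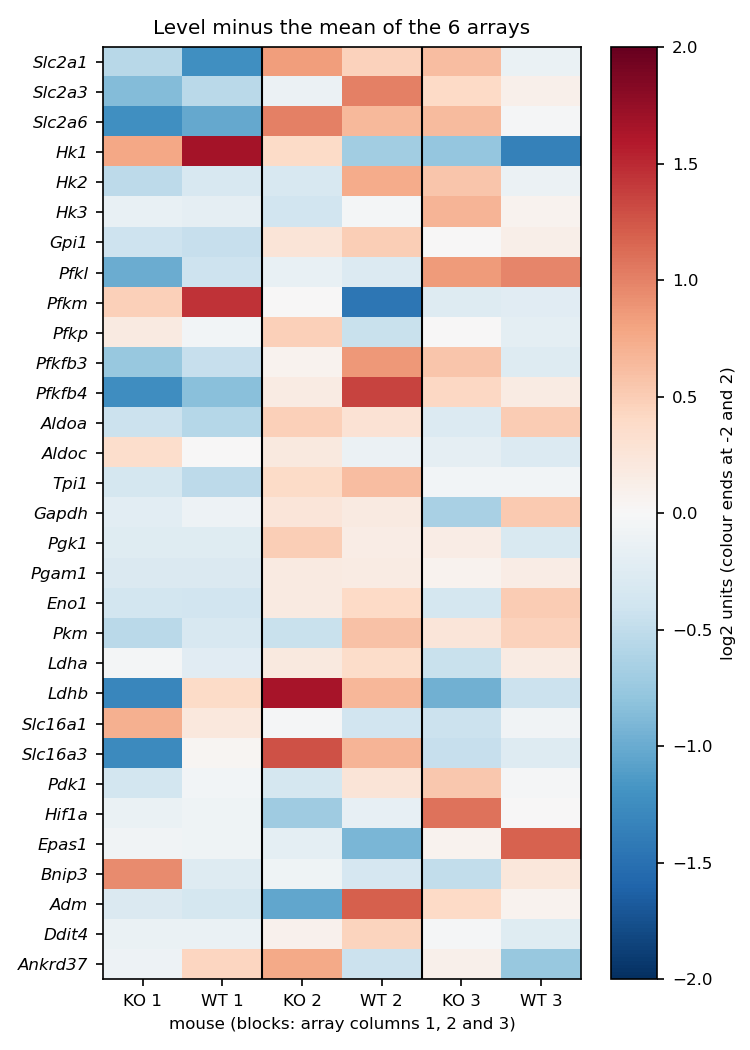
Each row is 1 of the 31 tested genes and each cell its level minus the mean of the 6 arrays in log2 units, blue below and red above, with knockout left of wild type in each array column. The first 2 arrays are blue for the transporters and most enzymes and red for Hk1, Pfkm and Slc16a1.

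Markers of other cells moved with the array column as well. Erythroid markers, of which 12 were tested, had a median centred level of 1.73, 0.44 and -1.13 in knockout mice 1, 2 and 3, against 1.98, -1.45 and -1.48 in wild-type mice 1, 2 and 3. Cell cycle markers, of which 23 were tested, gave 1.69, 0.20 and -0.50 in knockout mice, against 1.74, -1.39 and -1.56 in wild-type mice. Both lists were highest in the mice in which the transporters were lowest, and the glucose transporters gave -0.86, 0.84 and 0.61 in knockout mice, against -1.03, 0.65 and -0.03 in wild-type mice. Hk1, Pfkm and Slc16a1 were on average higher in column 1 than in the other columns, by 1.83, 1.45 and 0.69. Both arrays of column 1 lay above the other 4 for these 3 of 31 members (9.68%), against 15.1% of all genes. Bnip3, Aldoc, Ankrd37 and Pfkp were also higher there on average, by 0.51, 0.27, 0.24 and 0.10. The average was lower in column 1 for 24 of 31 members. Sptb of the erythroid list stayed at background, and 12 of the 13 genes on the array were well above it on all 6. Of the tested erythroid genes 10 of 12 lay above 0 between genotypes, and of the cell cycle genes 21 of 23. No gene of the cell cycle list was below background on every array. NK and T cell markers lay between 0.22 and 1.57 in knockout mice, against -0.79 and -0.35 in wild-type mice, with all 16 tested genes above 0 between genotypes and Cd247 at background on every array. Neutrophil markers lay between -0.37 and 1.53 in knockout mice, against -1.45 and 0.31 in wild-type mice, with 10 of 12 genes above 0. Red pulp macrophage markers lay between -0.25 and -0.23 in knockout mice, against -0.34 and 0.75 in wild-type mice. Of these markers 15 of 15 lay below 0 between genotypes, as did 11171 of all 18405 genes. Their median difference was 0.004, -0.43 and -1.24 within columns 1, 2 and 3. For 11 of the 15 the highest array was wild-type mouse 3, the array with the lowest 75th percentile. The part of these cells in the levels of the 35 genes was not tested. Without both arrays of column 1 the median difference of the members was -0.02, and no member was called.

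**Figure D4:**
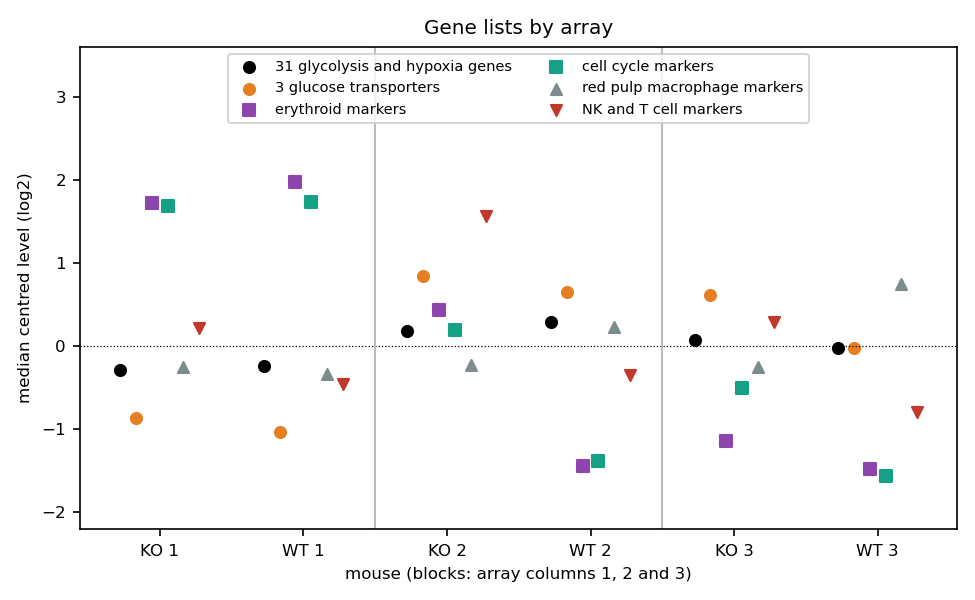
The median level of each gene list, after each gene was centred on the 6 arrays, is plotted by mouse in log2 units, with knockout left of wild type in each array column. Erythroid and cell cycle markers stand between 1.69 and 1.98 in both mice of column 1, where the glucose transporters stand at -0.86 and -1.03.

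Lists of neighbouring pathways gave 0 calls as well, each with 0 genes at an unadjusted p under 0.05 beside the 1.24% of all genes. For pyruvate oxidation and the TCA cycle, 7 of 25 tested genes lay above 0 and 18 below, with a median of -0.09. Pdk2, another pyruvate dehydrogenase kinase, differed by -0.88 ± 0.68, and Idh3a, a subunit of isocitrate dehydrogenase, by 0.54 ± 0.45 (SE). For the pentose phosphate pathway 2 of 8 lay above 0 and 6 below, with a median of -0.15, Rpia, a ribose phosphate isomerase, at 0.53 ± 0.47 and Tkt, transketolase, at -0.36 ± 0.44 (SE). For glycogen, gluconeogenesis and side branches 7 of 17 lay above 0 and 10 below, with a median of -0.12. In that list Pgm2, a phosphoglucomutase, read -0.81, -0.04 and -0.14 in knockout mice, against -1.21, -1.11 and -1.04 in wild-type mice, without overlap and with a difference of 0.80 ± 0.44 (SE). Pck2, the mitochondrial PEP carboxykinase, differed by -0.68 ± 0.74 (SE). Of 28 tested further hypoxia genes 10 lay above 0 and 18 below, with a median of -0.13. Among these, Hmox1, the inducible heme oxygenase, differed by -0.58 ± 0.52 (SE).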

How the data were processed

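RNA was measured on 6 Agilent mouse arrays with 1 Cy3 channel, 1 per mouse. The deposited scanner intensity values were read with Agilent Feature Extraction, given as 10.7.3.1 in the file headers and as 9.1 per the submitters' processing notes. Background and spatial trend had been removed within each array, per the file headers, and array totals still differed. The authors' deposited table of log2 values for 279 probes held none of the 35 genes and was not used further.

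Each array had 62976 spots, 59305 of them no controls. Spots marked as non-uniform or population outliers were set to missing, spots of a probe were averaged on the log2 scale, and the 75th percentile over the 55681 probes was subtracted. Probes were named through their RefSeq accession (26413 probes, 20018 genes, annotation of GRCm38). The brightest tested probe stood for a gene. Knockout was compared with wild type in limma 3.58.1 (R 4.3.3) by lmFit and eBayes over 18405 entries with Benjamini-Hochberg adjustment, and a call needed an adjusted p under 0.05. The fit was tested on simulated data. Replicates were numbered in record order, and each is a separate mouse. Precision is limited by having 3 arrays a genotype. Array column was tested as a block and with an F test.

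The 35 genes and all lists were chosen with earlier results of these data known. Values on every array were to be given for the 14 members with the smallest p and for Hif1a, Slc2a1, Hk2, Ldha, Gapdh and Pdk1, and for up to 2 genes of each neighbouring pathway the difference. One gene that this rule names is not reported here. Per-array values of other members were added after they were seen. The alternatives tried were array scaling, background correction, filters on dim probes, averaging of probes, a variance trend and leaving out mice.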

Additional observations from a re-analysis of the deposited data

How the results depend on the processing

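Under every alternative run, 0 of all genes and 0 of the members were called by limma. At an unadjusted limma p under 0.05 there were 229 genes, 110 among probes well above background on all 6 arrays, 581 with array column as a block, 463 without column 1, 398 without knockout mouse 3, 345 without a filter and 808 without wild-type mouse 1. Of the members, 1 was under 0.05 without knockout mouse 2 and 0 in the other settings. The share of all genes without knockout mouse 2 is not given here, so the 1 member cannot be set against it. The median member difference of -0.09 ranged from -0.20 to 0.06 when each mouse was left out. It was 0.04 with median centring, 0.10 with quantile normalization, and -0.0035, 0.07 and 0.09 within array columns 1, 2 and 3. With each array centred on its median the sign turned for Gpi1 at 0.029, Pfkfb3 at 0.040, Tpi1 at 0.12, Pgam1 at 0.12, Pdk1 at 0.015, Epas1 at 0.015 and Ddit4 at 0.087. With quantile normalization the sign turned for Gpi1 at 0.063, Pfkfb3 at 0.037, Aldoa at 0.064, Tpi1 at 0.11, Pgam1 at 0.15, Ldha at 0.10 and Ddit4 at 0.32. Without mouse 3 of each genotype, which share an animal tag, the sign turned for Hk3 at -0.16, Aldoa at 0.17, Pgam1 at 0.015, Ldha at 0.0042, Hif1a at -0.30 and Epas1 at 0.38. Without both arrays of column 1, a setting chosen after the data were seen, the sign turned for Pfkl at 0.0028, Pfkfb3 at 0.0091, Ldhb at 0.23, Slc16a1 at -0.0014, Slc16a3 at 0.19 and Bnip3 at -0.24. With the mean over probes Epas1 turned to 1.43 and Slc2a6 moved to 1.58, each through a dim probe at background in 2 wild-type mice, so that neither size is exact. Leaving out each mouse in turn moved these genes across 0: Slc2a3 between -0.74 and 0.029, Slc2a6 between -0.18 and 0.96, Hk1 between -0.35 and 1.16, Hk2 between -0.52 and 0.12, Hk3 between -0.22 and 0.31, Gpi1 between -0.36 and 0.12, Pfkl between -0.67 and 0.26, Pfkm between -0.54 and 0.91, Pfkfb3 between -0.39 and 0.31, Pfkfb4 between -0.98 and 0.12, Aldoa between -0.47 and 0.072, Tpi1 between -0.29 and 0.28, Pgam1 between -0.16 and 0.12, Ldhb between -1.34 and 0.14, Slc16a1 between -0.15 and 0.43, Slc16a3 between -1.02 and 0.25, Pdk1 between -0.42 and 0.034, Hif1a between -0.35 and 0.56, Epas1 between -0.61 and 0.44, Bnip3 between -0.17 and 0.55 and Ddit4 between -0.18 and 0.17. Slc2a1, Pfkp, Aldoc, Gapdh, Pgk1, Eno1, Pkm, Adm and Ankrd37 kept their sign under every alternative that tested them, each with an adjusted p of 1, but not their size. Some alternatives could not change a sign. The block and the variance trend leave every difference as it is, and averaging does so for genes with 1 tested probe. Leaving out each mouse moved Slc2a1 between 0.14 and 1.03, Pfkp between 0.32 and 0.56, Aldoc between 0.14 and 0.41, Gapdh between -0.63 and -0.18, Pgk1 between 0.088 and 0.45, Eno1 between -0.64 and -0.19, Pkm between -0.77 and -0.32, Adm between -0.96 and -0.17 and Ankrd37 between 0.25 and 0.85. With quantile normalization Gapdh shrank to -0.0077 and Eno1 to -0.095. The causes were not tested. No paired analysis was possible because the labels share only 1 animal tag between the genotypes. Array column served as a block instead and gave 0 calls. Its differences were the same, which the balanced layout fixed in advance. The authors' table gave no value for a member, and the normexp correction used median spot signals since mean signals are no column of the files. With 3 mice a genotype, intervals of about 1 log2 unit or more limit every statement, and Adm and Slc16a1 were near background.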
